A study of Triticum aestivum with 10 samples.

Results

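The transcripts described here climbed through every stage of wheat grain development and read at 4 or more, on the log2 scale, on the 1 array used for the first. They are the 42 probe sets, of 61179 on the array other than controls, that were chosen by their stage values. Each had a log2 value of at least 4 on the first array, B_1, and rose by at least 0.5 on the log2 scale at each of the 4 steps between B, C, D, E and G. Of the 22462 probe sets that reached 4 on B_1, 0.187% met the rule. A further probe set that met it, of the xylanase inhibitor XIP-I, was left out, because XIP-I, serpins and alpha-amylase inhibitors were treated apart. Probe sets of these families were found by gene name, 12 on the array, so any without an annotated gene could not be left out. The rises chose the members, so they are given as a description, with no test.

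The wheat grain first builds its tissues by cell division and then fills. Storage proteins and starch accumulate in the starchy endosperm, while the aleurone and the embryo gather protective proteins and dry out towards maturity. Late embryogenesis abundant proteins, which are induced by abscisic acid and by loss of water, and peroxiredoxins belong to that protective set.

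RNA of grain, endosperm with embryo, of hexaploid bread wheat (cv. Récital) grown in a greenhouse with no treatment was hybridized to Affymetrix wheat arrays, 1 array per sample. The 5 stages had 2 arrays each, numbered replicate 1 and replicate 2, at the following degree days in the labels. Stage B was taken at 130 (replicate 1) and 100 (replicate 2), C at 185 and 200, D at 230 and 250, E at 290 and 300, and G at 490 and 500. The replicate numbers were taken to stand for 2 harvests, since these degree days lie nearest to the sampling times that the methods give for each harvest. The paper describes the replicates as biological and independent, sampled in different years. The labels used here do not tie the samples to separate plants, so any p-value measures only the spread between these arrays, which may be technical in part.

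The replicate 2 array of stage B went against its label and was not used, and the value of B is therefore that of B_1 alone, whereas C, D, E and G are means of 2 arrays. On B_2 all 42 members stood above B_1, by 3.20 to 10.16, and within -0.35 to 0.66 of their value on the G replicate 2 array. The embryo genes Em and EM averaged 14.05 on B_2 and 2.47 on B_1, and 14.07 on the G replicate 2 array. The values are log2 after GCRMA, which normalizes arrays and removes unspecific binding by the base composition of each probe, and about 4 was taken as the border of background. The median of all probe sets lay between 2.94 and 3.09 on the 10 arrays. The small number of arrays, 1 at B and 2 at each later stage, limits the precision. The step from B to C has no replicate at its start.

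**Figure D1:**
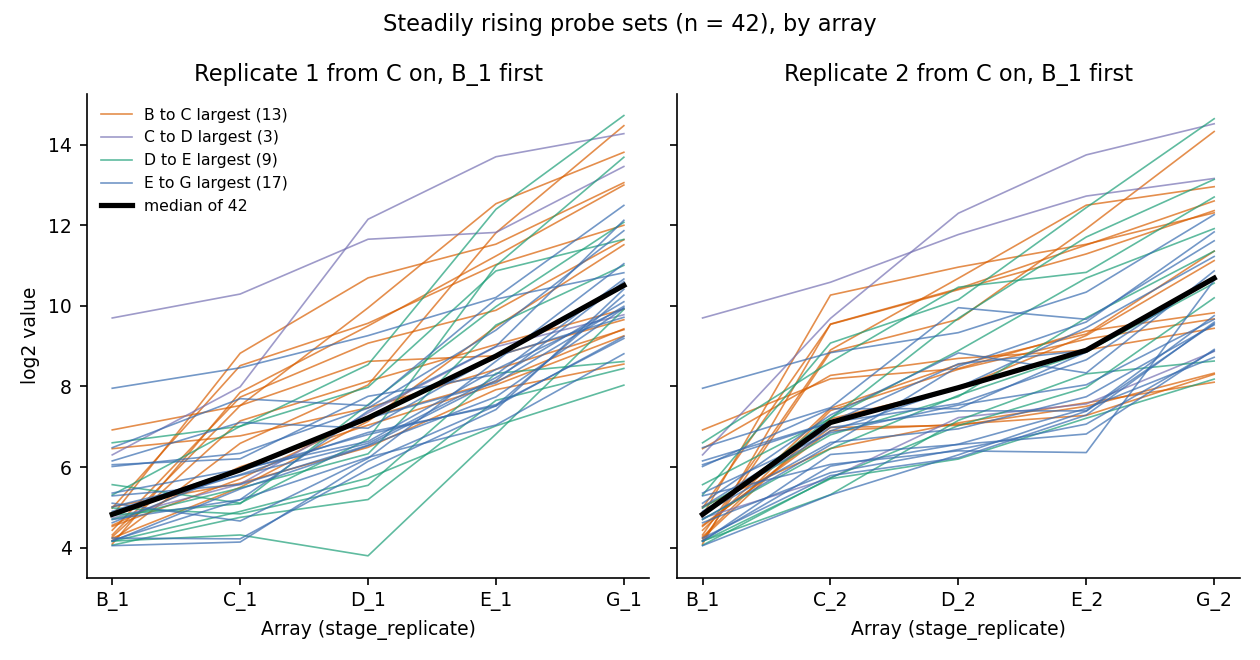
Log2 value (y axis) of each of the 42 members on the arrays of replicate 1 (left) and replicate 2 (right), with B_1 as the first point in both; lines are coloured by the step with the largest rise in stage values, and the black line is the median. The median line climbs to 10.51 on G_1 and 10.69 on G_2, and C_2 lies higher over B_1 than C_1 does.

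Members that began low ended high. Their median was 4.83 at B, 6.39 at C, 7.54 at D, 8.98 at E and 10.60 at G. The lowest value of any member was 4.05 at B and, in a different member, 8.11 at G. Only 1 member was at 8 or more at B, and 8 were at C, 17 at D, 28 at E and all 42 at G. The whole rise had a median of 5.27, a 38.5-fold change, and ran between 2.82 (7.06-fold) and 10.23 (1197-fold). In 37 of the 42 it was at least 4. Since 13 members lay under 4.5 on B_1, close to the border of background, the size of their first step depends on the background correction.

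The largest rises belonged to 2 probe sets of a single sequence cluster, Ta.9389, for which the annotation names no gene. Ta.9389.1.S1_x_at read 4.17 on B_1, 6.59 and 8.85 at C, 8.04 and 9.66 at D, 11.81 and 11.91 at E, and 14.47 and 14.33 at G, with replicate 1 given first in each pair. Ta.9389.1.S1_at read 5.31 on B_1, 7.01 and 9.08 at C, 8.54 and 10.15 at D, 12.40 and 12.44 at E, and 14.72 and 14.64 at G. In both, the C replicate 2 array lay above the D replicate 1 array, so these stages overlapped, while E and G stood clear of all earlier arrays.

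At the threshold of the rule, the members just inside had a smallest step of 0.53, Ta.13255.1.S1_at from B to C and Ta.29798.1.S1_s_at from D to E. The probe sets just outside were Ta.13537.1.S1_a_at, with 0.50 from D to E (0.49978 before rounding), and Ta.14574.2.S1_s_at, with 0.49 from C to D. In 9 members the smallest step was under 0.6. On B_1, the members nearest the border were Ta.8571.1.S1_a_at at 4.05 and TaAffx.100415.1.A1_at at 4.06, and the nearest below it were Ta.3025.1.A1_at at 3.99 and Ta.9369.1.A1_at at 3.98.

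No single step held most of the rise in the group as a whole. The step from B to C held a median of 27.4% of a member's rise, C to D 17.3%, D to E 20.3% and E to G 27.2%. The median rises at these steps were 1.19, 0.99, 1.11 and 1.62 on the log2 scale. The largest step was E to G in 17 members, B to C in 13, D to E in 9 and C to D in 3. A step held over 50% of the rise in only 5 members, B to C in 4 of them and E to G in 1.

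The steps were of unequal length in thermal time, 62.5 degree days for B to C, 47.5 for C to D, 55 for D to E and 200 for E to G. Per 100 degree days the median rise was 1.91 from B to C, 2.08 from C to D, 2.01 from D to E and 0.81 from E to G. By this rate the last step was the fastest in 1 member, against 17 for B to C, 13 for D to E and 11 for C to D. The tallies of the largest step, taken on the rises themselves, rested on single arrays at C and D. Without C replicate 1 the largest step was B to C in 22 members and E to G in 13, and without C replicate 2 it was C to D in 12, B to C in 7 and E to G in 15. Without D replicate 1 it was C to D in 15, D to E in 0 and E to G in 14, and without D replicate 2 it was D to E in 16 and E to G in 14. With an array of E or G left out, E to G had 16 to 18 and stayed first.

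**Figure D2:**
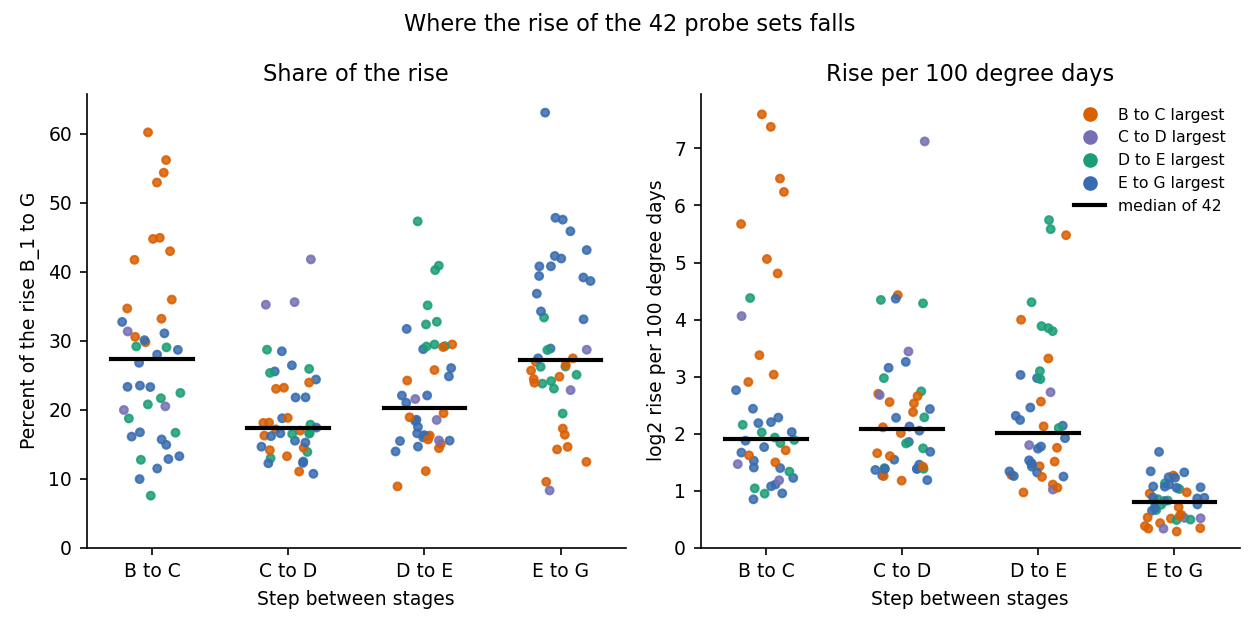
Percent of each member's rise from B_1 to G that fell in each step (left) and the log2 rise per 100 degree days in that step (right); points are the 42 members, coloured by their largest step, and bars are medians. The medians of the shares are 27.4%, 17.3%, 20.3% and 27.2%, and the rate of the last step has a median of 0.81.

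Members with their largest step at the start had the largest median rise, but their range took in that of all the others. The 13 whose largest step was B to C had a median rise of 7.07 (2.82 to 10.23) in all and of 3.01 in that step, with a median level of 4.53 at B and 7.60 at C. The 17 led by E to G had a median rise of 4.92 (4.06 to 7.28) in all and 2.12 in the last step, with a median level of 8.07 at E and 10.21 at G. The 9 led by D to E had a median rise of 5.57 (3.95 to 9.38), and the 3 led by C to D had 4.59 (3.61 to 8.09). These subsets were set by the same values and were not tested against each other.

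Among the members led by the first step, Ta.13400.1.S1_x_at took 60.2% of its rise from B to C. It read 4.80 on B_1, 8.82 and 10.27 at C, 10.69 and 10.96 at D, 11.53 and 11.53 at E, and 13.06 and 12.31 at G (replicate 1, then replicate 2). At the other end, 63.1% of the rise of Ta.13255.1.S1_at fell between E and G. The probe sets of this paragraph were picked after their values were seen.

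Rises at every step were uncommon even among the probe sets that gained as much. Of those at 4 or more on B_1, 404 rose by at least 2.82 between B_1 and G, and the 42 members were 10.4% of them. In 295 of the other 362 (81.5%) a single step held over 50% of the rise, against 5 of the 42 members (11.9%). The largest step of the 362 was B to C in 243 (67.1%), E to G in 101 (27.9%), D to E in 12 and C to D in 6. Of these 362, 113 failed the rule at 1 step and 249 at 2 or more. The members had to rise at all 4 steps, which spreads their rise by construction, so this contrast is a description.

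A larger set of 154 probe sets, 1 of them of XIP-I, rose by at least 0.5 at every step from below 4 on B_1. In those the first step was the largest in 85, with a median of 2.60, and E to G in 39. As they started in the background, the true size of their first step is not known. In the opposite direction, 84 probe sets fell by at least 0.5 at every step and were still at 4 or more at G, and E to G was the largest fall in 47 and B to C in 26.

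The annotation gave exactly 1 gene for 1273 probe sets of the array. Of these, 795 reached 4 on B_1, which is 3.54% of the probe sets at that level, and 6 were members (14.3% of the members). It named no gene for the other 36 members. Of 111 probe sets at 4 or more on B_1 whose gene has a name beyond a locus number, only that of LEA1 met the rule and was kept. No sequence of these genes was used here.

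LEA1 (LOC543476), a group 3 late embryogenesis abundant protein, was the single member with a name. On Ta.23797.1.S1_x_at it read 4.98 on B_1, 8.52 and 9.54 at C, 9.57 and 10.40 at D, 11.02 and 11.29 at E, and 12.00 and 12.36 at G (replicate 1, then replicate 2). The stage values were 9.03 ± 0.72 at C, 9.98 ± 0.59 at D, 11.16 ± 0.19 at E and 12.18 ± 0.26 at G (SD, n = 2 each). LEA1 thus stood well above the background from stage C on, and its whole rise was 7.20, a 147-fold change. The step from B to C gave 4.04 of it, and the later steps gave 0.96, 1.17 and 1.03. No array of a later stage lay below one of an earlier stage, though D_1 exceeded C_2 by less than the SD of either stage.

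The steps of LEA1 contrast with those of other late embryogenesis genes on the array. The list of such genes held 10 probe sets, and that of LEA1 was the only one at 4 or more on B_1. Em (LOC543480), an embryo protein of late maturation, was at 2.49 on B_1 and 2.64 at E on probe set Ta.25025.1.S1_x_at and reached 14.41 ± 0.15 (SD, n = 2) at G. Rab15 (LOC543293), a dehydrin, was at 2.77 on B_1, 3.14 at D, 6.71 at E and 11.54 at G on Ta.2704.1.S1_x_at. COR410, also in the list, did not come on, with 3.05 on B_1, 3.37 at E and 3.02 at G on Ta.16419.1.S1_at. LEA1 was thus above background at B, C and D, where these were not.

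LOC543479, on Ta.2799.1.S1_x_at, climbed most from C to D. It read 6.30 on B_1, 7.99 and 9.69 at C, 12.15 and 12.30 at D, 13.70 and 13.75 at E, and 14.27 and 14.52 at G (replicate 1, then replicate 2). No array of a later stage lay below one of an earlier stage. Its C to D step was 3.38 of a rise of 8.09. A second probe set of this locus, Ta.64.1.S1_at, read 3.72 on B_1, just under the border, and rose by 1.88, 2.80, 3.04 and 3.05 at the 4 steps.

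LOC543084, on Ta.727.1.S1_x_at, rose most at the start. It read 4.09 on B_1, 7.85 and 9.55 at C, 9.50 and 10.43 at D, 11.24 and 11.51 at E, and 13.00 and 12.60 at G (replicate 1, then replicate 2). The B to C step was 4.61 of 8.71. The C replicate 2 array lay slightly above the D replicate 1 array, and the other stages did not overlap.

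LOC542830, on Ta.231.1.S1_at, rose by 2.11, 1.20, 1.83 and 1.95 at the 4 steps. It read 4.24 on B_1, 5.50 and 7.20 at C, 7.13 and 7.96 at D, 9.48 and 9.26 at E, and 11.52 and 11.12 at G (replicate 1, then replicate 2). The second probe set of this locus, Ta.231.1.S1_x_at, rose by 2.54, 1.47, 1.89 and 1.95, and missed the rule only because it read 3.96 on B_1. On the member probe set C_2 lay slightly above D_1.

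LOC543421, on Ta.22973.1.S1_x_at, rose by 1.21, 1.41, 1.63 and 1.33. It read 6.60 on B_1, 7.01 and 8.61 at C, 7.98 and 10.46 at D, 10.87 and 10.83 at E, and 11.65 and 12.70 at G (replicate 1, then replicate 2). At D replicate 1 was lower than replicate 2 (-2.48), and C_2 was above D_1.

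LOC542888, on Ta.13255.1.S1_at, is the member nearest the threshold. It read 5.28 on B_1, 5.57 and 6.07 at C, 6.54 and 6.40 at D, 8.15 and 6.36 at E, and 10.60 and 10.64 at G (replicate 1, then replicate 2). The rise from D to E was present on the replicate 1 array alone, where E exceeded D, since the replicate 2 array at E was no higher than at D. A second probe set of the locus, Ta.2787.1.S1_at, stayed at 2.02 to 2.18 in the stage values of B to E and read 7.92 at G, so that the 2 probe sets of LOC542888 agreed only in the last step.

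**Figure D3:**
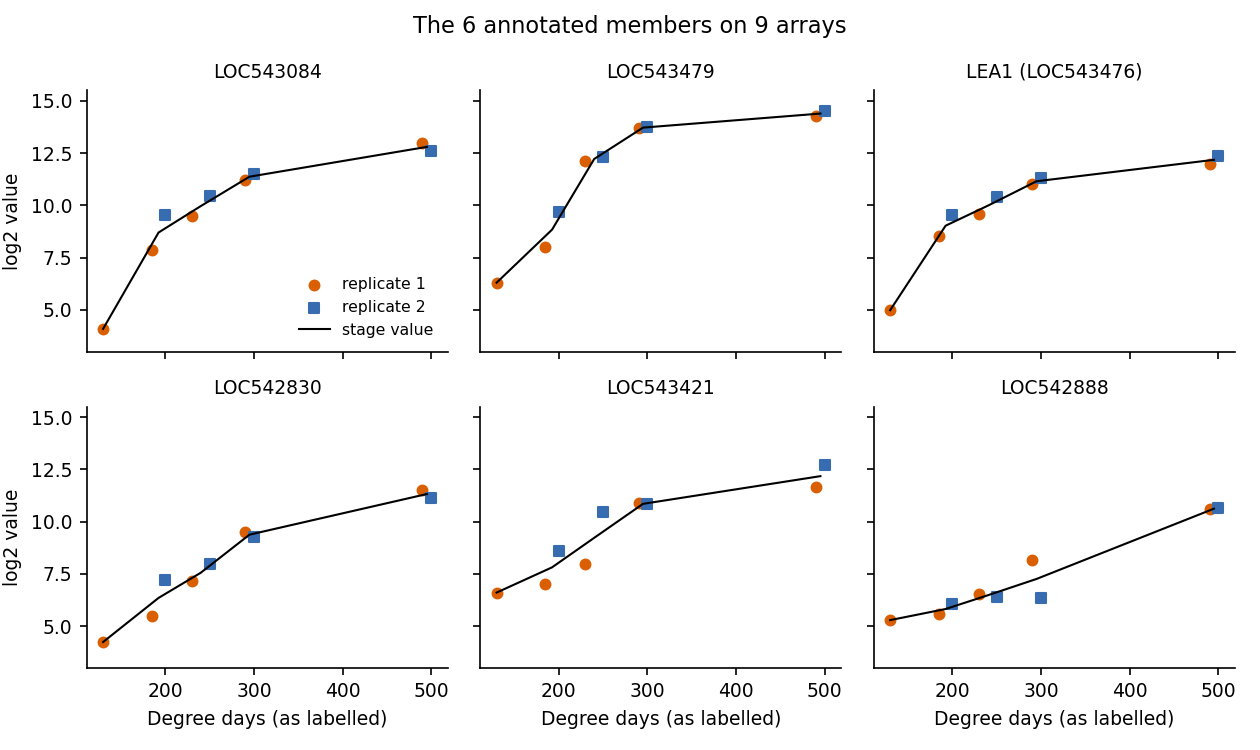
Log2 value (y axis) against the degree days in the labels (x axis) for the 6 members with an annotated gene; circles are replicate 1, squares replicate 2 (no B array of replicate 2 was used), and the line joins the stage values. LEA1 gains 4.04 in its first step, and LOC542888 gains 3.36 in its last.

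Other named genes rose at every step without being members. The fructan exohydrolase 1-FEH (LOC543441), which breaks down fructan, was at 7.32 on B_1 and 9.37 at G, but its steps from C to D and D to E were 0.41 and 0.22. PER1 (LOC543108), a peroxiredoxin of the aleurone and embryo, rose by 7.89, 2.23, 0.71 and 0.81 on Ta.14503.1.S1_at, but started at 2.18. TTHV, a type V thionin of the endosperm, started at 2.42, and the small heat shock gene hsp16.9A (LOC543277) at 2.79. The reference pairs these genes with symbols and synonyms but with no description, and 12 of 16 gene lists by function, such as gluten proteins and photosynthesis, matched no symbol, although gliadin, glutenin and photosystem genes are on the array under other names. Nothing is read from those lists. Of the other 4, that of late embryogenesis and dehydration held LEA1 and the rest held 0 members among 7 probe sets.

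The members were not spread evenly over independent transcripts. Their names fell into 36 sequence clusters, 6 of which had 2 member probe sets. Within these 6 pairs the whole rise differed by at most 0.85, and 4 pairs had the same largest step. The pair of Ta.5499, for example, rose by 4.47 and 4.42, and that of Ta.8571 by 5.86 and 5.77. Probe sets of 1 cluster are not independent measurements, since they can match the same transcript.

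In 22 of the 42 members (52.4%) the name ended in _a_at, _s_at or _x_at, which marks probes that can match several transcripts or homoeologs. Among the probe sets at 4 or more on B_1 the share was 36.0%. The ending _x_at alone made up 33.3% of members and 16.4% of the others at that level or more. For these members the copy of the gene that rose is uncertain.

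Probe sets that share a cluster number with a member mostly rose too. There were 32 of them, and 27 reached 4 on some array. All 27 rose between B_1 and G, by 0.41 to 10.07, as did 46.9% of all 27333 probe sets that reached 4 on some array. Of the 27, 21 rose to some extent at every step, against 5.62% of all, and 7 by at least 0.5, against 0.721%. These 7 read under 4 on B_1, since otherwise they would be members, while 12 of the 27 reached 4 there. Ta.27001.1.S1_at read 1.97 on B_1, where the member Ta.27001.2.S1_at read 4.81. Ta.13400.2.A1_at read 2.92, where the member Ta.13400.1.S1_x_at read 4.80. For such members, expression at B depends on the probe set. Probe sets of a cluster can match the same transcript, so they are no independent sample. The first step was where they most often fell short, as 14 of the 27 rose by under 0.5 from B to C and 5 of these fell. Ta.8571.2.S1_x_at fell most, with a step of -0.49 from 6.46 on B_1. Ta.6187.1.S1_at also went against its partner. It read 8.60 on B_1 and 7.92 and 9.07 at C, where the member Ta.6187.1.S1_x_at read 4.32 on B_1 and 7.52 and 8.90 at C (replicate 1, then replicate 2). From D on both read alike, at 13.91 and 13.08 and at 13.81 and 12.96 on the G arrays. The B to C step of that member therefore rests on how 1 probe set read on 1 array. These clusters were picked after their values were seen.

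The agreement between the replicates was closest late in development. At C the members were lower in replicate 1 than in replicate 2, with a median difference of -0.99, and 38 of 42 were higher in replicate 2. At D the median difference was -0.54, with 34 higher in replicate 2, at E it was -0.04, with 22, and at G it was 0.26, with 14. Over all probe sets at 4 or more on B_1 the medians were 0.06 at C, 0.16 at D, 0.11 at E and 0.03 at G, and 42.5%, 31.9%, 36.5% and 46.3% were higher in replicate 2. The members thus differed from the bulk of the array mainly at C and D. Their rule starts from B_1, a replicate 1 array, and so can favour probe sets lower in replicate 1. How far it did was not tested. The 154 probe sets that rose steadily from below 4 showed the same course with a wider gap at C, with medians of -1.75 at C (98.1% higher in replicate 2), -0.78 at D, -0.19 at E and 0.18 at G.

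The replicate 2 grains were labelled 15 degree days later than those of replicate 1 at C, 20 later at D, and 10 later at E and at G. The part of this in the differences was not tested. Of the members, 20 (47.6%) were over 1 apart at C, against 9.14% of all probe sets at 4 or more on B_1. At D it was 15 (35.7%, against 7.81%), at E 5 (11.9%, against 6.58%) and at G 8 (19.0%, against 8.33%). The widest gap at C was -2.63, in Ta.6219.2.S1_at, and at D it was -3.36, in Ta.28623.1.S1_x_at, which read 3.80 on D_1 and 7.16 on D_2. D_1 was the sole array of the 10 on which a member was under 4. The 84 steadily falling probe sets went the other way, with medians of 0.54 at C, 0.30 at D, 0.39 at E and 0.03 at G.

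**Figure D4:**
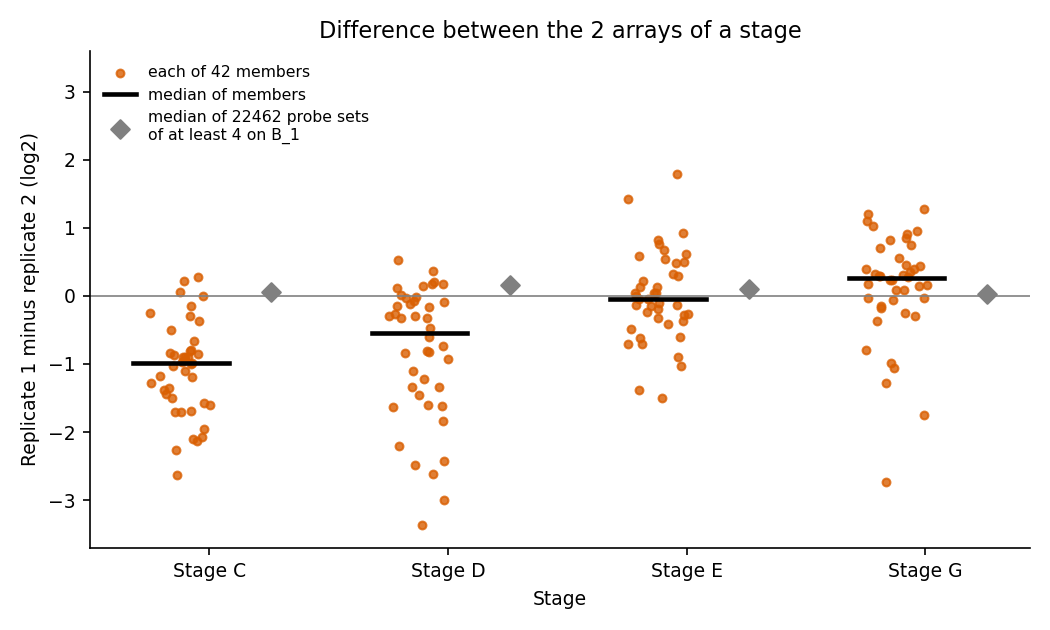
Replicate 1 minus replicate 2 (log2, y axis) at each stage with 2 arrays in use; orange points are the 42 members, black bars their medians, and grey diamonds the medians of the 22462 probe sets at 4 or more on B_1. The members' medians are -0.99, -0.54, -0.04 and 0.26, while the diamonds stay between 0.03 and 0.16.

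The difference between the replicates does not enter the means of C, D, E and G that chose the members, and could be tested. B was the replicate 1 array alone, however. A probe set lower in replicate 1 at every stage, B included, would thus meet the first step more easily. For the members the fit is therefore not free of the rule, and nothing is read from their counts against those of all probe sets. With limma over 24727 probe sets at 4 or more on at least 2 of the 9 arrays, stage taken into account, 0 probe sets (0%) differed between replicate 1 and replicate 2 at an adjusted p under 0.05, and 0 of the 42 members did. The fit took 1 difference for C, D, E and G together. A gap that changes between stages adds to its spread, so it cannot decide on a difference at C and D alone. At an unadjusted p under 0.05 there were 4526. Of these, 1633 (6.6% of those tested) were lower in replicate 1 and 2893 (11.7%) higher, against 7 members lower and 1 higher. The median of the fitted differences was -0.34 over the members, 34 of which were lower in replicate 1, and 0.08 over all probe sets, of which 39.8% were lower.

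The members with the smallest p were both of cluster Ta.9140 and have no gene name. Ta.9140.2.S1_at read 4.84, 5.55, 8.33 and 8.62 in replicate 1 at C, D, E and G, against 6.80, 7.75, 9.70 and 11.36 in replicate 2. It was lower in replicate 1 at all 4 stages, with a mean difference of -2.07 ± 0.24 (SE; limma, adjusted p = 0.056). For Ta.9140.1.A1_at the difference was -1.15 ± 0.15 (SE; limma, adjusted p = 0.060). LEA1 was also lower in replicate 1, with a difference of -0.62 ± 0.19 (SE; limma, adjusted p = 0.17), again at all 4 stages. The call for Ta.9140 hung on the settings, as the adjusted p of 1 or both fell under 0.05 with quantile normalization, a trended prior or a filter of 6.

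Seen in each replicate by itself, most members kept rising, though not always by 0.5. The rule used the means of these values, so the counts are a description and nothing is read from them about agreement. In replicate 1, with B_1 as the start, 29 rose by at least 0.5 from B to C, 38 from C to D, 40 from D to E and 41 from E to G, and 24 did so at all 4. In replicate 2, which also had to start from B_1, the counts were 42, 29, 30 and 38, with 20 at all 4. With that shared start, 14 members met the rule in each of the 2 series, and 34 rose to some extent at every step in both. The largest step was the same in both replicates for 21 of the 42. It was B to C in 7 members by replicate 1 and in 22 by replicate 2, and D to E in 13 and in 1.

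Both arrays of C lay above B_1 in 38 of the 42 members, against 29.7% of all probe sets at 4 or more on B_1. Both arrays of D lay above both of C in 26, against 12.1%, those of E above those of D in 37, against 12.5%, and those of G above those of E in 40, against 28.1%. The rule used these values, so nothing is read from the gap to the background. The weakest separation was thus between C and D. The C replicate 2 array, at 200 degree days, exceeded the D replicate 1 array, at 230, in 15 members, with a median difference of -0.15. The D replicate 2 array exceeded the E replicate 1 array in 3, and E replicate 2 exceeded G replicate 1 in 1.

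A choice made on 1 replicate can be followed in the other over the 3 steps from C to G, which share no array. Of 34 probe sets that met the rule in replicate 1, 14 rose by at least 0.5 at each of the 3 steps in replicate 2, as did 0.365% of all probe sets at 4 or more on B_1, and 31 rose at each to some extent. Of 37 that met it in replicate 2, 24 rose by at least 0.5 at each step in replicate 1, against 0.646% of all, and 32 to some extent. At any rise above 0 the share over all probe sets was 8.13% in either replicate. Both sets were chosen with B_1 as their first array.

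The count of members turned on single arrays, above all at C and D. With C replicate 1 left out, 20 probe sets met the rule, 18 of them members, and with D replicate 2 left out 27 did, 26 of them members. Only 4 members met it whichever of the 8 arrays of C, D, E and G was left out, namely Ta.13400.1.S1_x_at, LOC543479 on Ta.2799.1.S1_x_at, Ta.5499.1.S1_at and Ta.8881.1.S1_s_at, while 33 met it in at least 6 of the 8. Ta.8881.1.S1_s_at, for example, read 4.27 on B_1, 7.15 and 7.40 at C, 8.13 and 8.43 at D, 9.04 and 9.17 at E, and 9.92 and 9.68 at G (replicate 1, then replicate 2).

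Markers of the grain tissues followed courses of their own on these samples of grain, endosperm with embryo. A probe set of the aleurone gene PER1 rose by at least 0.5 at every step, but from the background and with 7.89 of its 11.64 from B to C. The 15 probe sets of starchy endosperm genes were of gliadins, glutenins, purothionins and the starch synthesis gene GBSS, with 1 under 4 throughout. Their mean was 3.90 on B_1, 12.06 at C and between 12.39 and 12.65 at the later stages, and 0 of the 15 rose at every step. On B_1 they were split, as GBSS read 9.77 and the purothionins 5.73 to 7.06, but the gliadins and glutenins 1.98 to 3.45. The 5 probe sets of the embryo genes Em and EM had means of 2.47 to 3.04 at B to E, in the background, and 14.04 at G. Of 2 probe sets of the aleurone gene PER1, 1 stayed under 4, and the other stood at 2.18 on B_1, 10.06 at C, 12.30 at D, 13.01 at E and 13.82 at G. OEE1 (LOC543291), a photosystem II subunit of green tissue, stood at 11.17 on B_1 and fell at every step, to 6.66 at G. Their part in the rise of the members was not tested, and in such bulk samples more cells of a type and more RNA per cell cannot be told apart.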

How the data were processed

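Log2 values, 1 column per array, were taken from the table that the authors deposited after GCRMA normalization of the wheat arrays in Bioconductor, with the version not given in the sources used here. All 10 columns were mapped by title, and 0 were left unmapped. The 111 AFFX controls were left out. The rule used B_1 and the means of 2 arrays at C, D, E and G. Replicate 1 minus replicate 2 was fitted with limma 3.58.1 in R 4.3.3, with a mean for each stage, over 24727 probe sets at 4 or more on at least 2 of 9 arrays, and Benjamini-Hochberg adjustment. The fit was also run on simulated data, and nothing is read from that run here. Other steps used Python 3.11.15. Alternatives changed the rule's limits, the normalization, the filter, the prior, the adjustment and the arrays used. Of the members, all with 1 gene symbol, those with the largest rise and those nearest the thresholds were named. Gene names came from the array annotation. It gave 1 gene for 1273 probe sets, and the RefSeq table held that gene for 1272. The members, gene lists and tests were chosen with earlier results of these data known. Promoter, protein and genome sequences were not used here.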

Additional observations from a re-analysis of the deposited data

Results flagged for a closer look

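The array labelled B replicate 2, which the rule does not use, read far higher in all 42 members than B replicate 1, on which they stood at 4 or more. The difference had a median of 5.36 on the log2 scale (3.20 to 10.16). Their values lay a median of 0.08 above those on G replicate 2, within 0.5 of it in 39 of 42. Tissue markers did the same, as 15 starchy endosperm probe sets averaged 12.57 on B_2, against 3.90 on B_1, and 5 embryo probe sets 14.05, against 2.47, with 12.44 and 14.07 on G replicate 2. The label of B_2 is therefore in doubt, and no array besides B_1 stands for that stage.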

How the results depend on the processing

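With quantile normalization 42 probe sets met the rule, 39 of them shared with the 42 described, and with arrays centred on their medians 46 did, sharing 40. The limits of the rule set the count. It was 140 with a least rise of 0.25, 9 with a least rise of 1, 87 with a least value of 3 on B_1, 17 with one of 5, and 195 with none. Leaving out 1 array gave 20 to 46 probe sets, the fewest without C replicate 1. The median share of the rise ran between 18.0% and 36.8% for B to C, 7.97% and 26.2% for C to D, 16.5% and 24.7% for D to E, and 26.3% and 31.9% for E to G when 1 array was left out. That of E to G was 26.6% with quantile normalization, 28.1% over members without _a_at, _s_at or _x_at names, 28.3% in replicate 1 and 27.9% in replicate 2. The series of each replicate by itself and the return of XIP-I, serpins and alpha-amylase inhibitors (43 probe sets) were added after the data were seen. Of the 34 probe sets chosen on replicate 1, 22 rose at each step by 0.25 and 31 by any amount in replicate 2. Between the replicates limma called 0 probe sets, also with no filter, with Bonferroni adjustment and with all 10 arrays, but 217 with a filter of 6 (2 members), 48 with quantile normalization (1 member), 207 with a trended prior (2 members), and 0 to 156 with 1 array left out, the 156 without either array of C. Leaving out either array of C takes stage C out of the fitted difference, so both of these settings gave 156 calls, with 0 members. Why the count rose was not tested. The median difference of the members stayed below 0 under all 5 alternatives, between -0.57 without stage G and -0.17 without stage C. No paired analysis was possible because the replicate number, which would set the pairs across stages, is itself the term that was tested. The fit did set replicate 1 against replicate 2 within each of C, D, E and G. The rises have no test.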
